A study of Mus musculus with 4 samples.

Results

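The insulin-like growth factor (IGF) binding proteins and IGF receptors were followed through 4 RNA-seq libraries of mouse keratinocytes. They were chosen by gene symbol from a list of 8 names (Igfbp2 to Igfbp7, Igf1r and Igf2r). Of these, 7 had a row among the 13102 gene rows of each library's table. No row carried the symbol Igfbp6, so it could not be analysed. Primary epidermal keratinocytes of neonatal C57BL/6 mice were grown for 48 h and made up 4 groups of 1 library each. The first group, untreated WT, is wild-type (WT) cells with no cytokine. The treated groups received 100 ng/mL of interleukin-17A (IL-17A), a cytokine of inflamed skin, during 8 h. They come from WT mice (treated WT, written IL-17A WT in the plots) and from knockout (KO) mice lacking Il17rc or Il17rd, members of the IL-17 receptor family. How the knockouts were made, and how many animals gave each culture, is not stated in any source used here. Untreated cells of the knockouts were not analysed here, so what the genotype does by itself and what it does to the cytokine response cannot be told apart.

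IGF-I and IGF-II are secreted growth factors that signal through IGF1R, a tyrosine kinase of the cell surface that activates the PI3K-AKT and RAS-ERK pathways. In the extracellular space the binding proteins hold the ligands, and so restrict or prolong their access to the receptor, and several also act on cells without the ligands. IGF2R, which is also the cation-independent mannose 6-phosphate receptor, takes up IGF-II for degradation and sorts lysosomal enzymes. In epidermis, IGF1R signalling is known for its part in the growth of basal keratinocytes.

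Total counts over the deposited genes ranged from 19711866 to 19904695. Levels are counts relative to a library size scaled by TMM (CPM), which corrects for differences in library composition. Values in parentheses after a fold are the exact 95% interval of the counts. The interval holds counting error alone, with reads treated as independent draws, and with 1 library per group no p-value was computed. A gene is called higher or lower where the scaled counts of a pair of libraries differed by at least 2-fold and that interval excluded 1, among 12934 genes averaging at least 1 CPM, a filter that all 7 genes passed. A call describes those libraries. Il17rd had 5 counts in the library labelled Il17rd KO and 150 to 265 in the others, and Il17rc had 439 in the library labelled Il17rc KO and 1152 to 2729 in the others. Sex-linked genes differed as well. Il17rd KO cells stood apart, with 2 counts of the Y-linked Ddx3y (233 to 749 elsewhere) and 8513 of Xist (2420 to 4750 elsewhere). The WT libraries were also unlike each other. In CPM, treated WT was at 11.9 for Ddx3y and 243 for Xist, where untreated WT was at 34.1 and 126. The part of these differences in the results below, those of treated against untreated WT included, was not tested.

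Igfbp2 and Igfbp5 lie tail to tail on chromosome 1 (72824503 to 72852474, plus strand, and 72857932 to 72874884, minus strand, GENCODE M21, GRCm38), with 5457 bases between them. Igfbp3 (7206086 to 7213923, minus strand) and Igfbp4 (99041244 to 99054392, plus strand) are on chromosome 11, Igfbp7 on chromosome 5 (77349240 to 77408041, minus strand), Igf1r on chromosome 7 (67952827 to 68233668, plus strand) and Igf2r on chromosome 17 (12682406 to 12769664, minus strand). Gene lengths implied by the deposited FPKM values were close to the summed exon lengths, such as 1.85 kb against 1847 bases for Igfbp2. None of the 7 had a near-identical copy in the annotation. Igfbp7 shares 85 exon bases, 7.03% of its exon length, with Polr2b on the opposite strand, and no source used here gives the strand setting of the counting. Polr2b had 1659, 1916, 2189 and 2058 counts in untreated WT, treated WT, treated Il17rc KO and treated Il17rd KO, the order in which counts are listed throughout. Igf2r overlaps the antisense gene Airn in position but shares 0 exon bases with it.

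The 250 bases before the RefSeq start (GRCm38.p6) are shown for the 4 binding protein genes whose levels differed most between libraries, since they moved in opposite directions. The windows are chr1:72824230-72824479 (plus strand) for Igfbp2, chr5:77408046-77408295 (minus strand) for Igfbp7, chr11:7213924-7214173 (minus strand) for Igfbp3 and chr11:99040994-99041243 (plus strand) for Igfbp4, each written 5′ to 3′ in the direction of the gene. Igfbp2 has 2 starts in the table, and the one nearer to the GENCODE start is shown. Capitals mark matches on either strand to any of 6 motifs searched: GGG and CC with any 5 bases between (a loose NF-kB form), TGANTCA (AP-1), TTGCNNAA (a C/EBP form), GTAAACA (FOXO), GGGCGG (the GC box of SP1) and TATAAA.
Igfbp2: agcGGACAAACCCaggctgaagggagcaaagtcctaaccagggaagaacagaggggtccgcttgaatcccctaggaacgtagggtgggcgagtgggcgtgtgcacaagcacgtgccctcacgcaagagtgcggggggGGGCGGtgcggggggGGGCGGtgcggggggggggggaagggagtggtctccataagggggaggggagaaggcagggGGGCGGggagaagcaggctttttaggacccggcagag
Igfbp7: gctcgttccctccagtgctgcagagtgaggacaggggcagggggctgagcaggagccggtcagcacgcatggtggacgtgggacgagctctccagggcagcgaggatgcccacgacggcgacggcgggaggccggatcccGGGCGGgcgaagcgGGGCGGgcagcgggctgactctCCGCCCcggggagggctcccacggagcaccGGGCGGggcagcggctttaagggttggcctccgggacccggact
Igfbp3: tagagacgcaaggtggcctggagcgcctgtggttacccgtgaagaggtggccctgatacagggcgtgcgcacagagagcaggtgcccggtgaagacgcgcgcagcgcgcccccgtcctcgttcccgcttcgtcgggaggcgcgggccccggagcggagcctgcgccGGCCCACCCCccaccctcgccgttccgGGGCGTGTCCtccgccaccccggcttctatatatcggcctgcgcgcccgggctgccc
Igfbp4: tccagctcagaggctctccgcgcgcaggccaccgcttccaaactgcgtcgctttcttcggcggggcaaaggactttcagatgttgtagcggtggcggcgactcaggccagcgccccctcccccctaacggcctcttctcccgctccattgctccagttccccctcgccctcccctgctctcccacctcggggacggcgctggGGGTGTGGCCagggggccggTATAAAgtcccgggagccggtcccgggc
All 4 windows were rich in G and C, at 67.2%, 74%, 73.2% and 69.2% in the order shown, against a median of 52.4% over 32817 such windows. GGGCGG occurred 3 times in the Igfbp2 window and 4 times in that of Igfbp7, and 32.7% of all windows hold it. The NF-kB form occurred once in the Igfbp2 window, once in that of Igfbp4 and 2 times in that of Igfbp3, at a share of 45.8% of all windows. TATAAA was found in the Igfbp4 window alone of these 4, starting at base -28, and in 12.4% of all windows. The AP-1, C/EBP and FOXO letters had 0 matches in the 4 windows, and 6.75%, 9.57% and 3.16% of all windows hold them. GC boxes thus stood in the windows of both Igfbp2, which was lower in treated WT than in untreated WT, and Igfbp7, which was higher. In windows not shown, GGGCGG also occurred 2 times for Igf1r and 3 times for Igf2r. The NF-kB form occurred 2 times each for Igfbp5 and Igf2r. Igfbp5, Igf1r and Igf2r were called in no comparison. A match is a description of letters and not a binding site.

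The binding protein transcripts changed places between the libraries. Per length (CPM per kb of the gene length that the deposited FPKM values imply), Igfbp2 made up 77.8% of the summed level of the 5 measured binding proteins in untreated WT, Igfbp7 14.7% and Igfbp3 7.48%. In treated WT, Igfbp7 made up 74.0%, Igfbp3 23.7% and Igfbp2 2.13%. In Il17rc KO cells the shares of Igfbp7, Igfbp2 and Igfbp3 were 50.1%, 31.4% and 18.2%, and in Il17rd KO cells 43.5%, 28.4% and 28.0%. Both knockout libraries thus lay between the WT libraries in the share of Igfbp2 and of Igfbp7. They did not in the summed level, which was 470, 597, 156 and 321 CPM per kb in the 4 libraries, lowest in Il17rc KO cells. Igfbp4 and Igfbp5 were each below 1 CPM per kb in all 4 libraries. In bulk RNA fewer cells of a type and less RNA per cell cannot be told apart. A ratio of genes within a library does not depend on the scaling. Igfbp2 was 10.4 times Igfbp3 per length in untreated WT, and Igfbp3 was 11.1 times Igfbp2 in treated WT. Igfbp2 was 1.73 times Igfbp3 in Il17rc KO cells and 1.01 times in Il17rd KO cells, where their counting intervals overlapped.

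**Figure D1:**
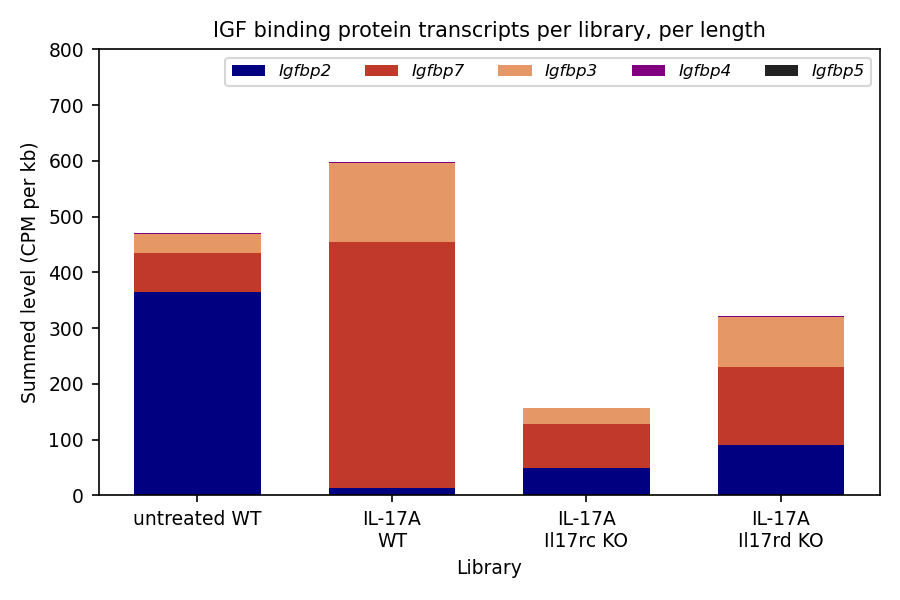
Stacked bars give the summed level of the 5 measured IGF binding protein transcripts per library in CPM per kb, with 1 bar per library and 1 colour per gene. Igfbp2 fills 77.8% of the untreated WT bar and 2.13% of the treated WT bar, and the Il17rc KO bar is the shortest at 156.

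Igfbp2, a binding protein that prefers IGF-II, had 12965 counts in untreated WT, 460 in treated WT, 1821 in treated Il17rc KO and 3460 in treated Il17rd KO. That is 676, 23.5, 90.8 and 168 CPM. The untreated library was the highest and treated WT the lowest, and no counting intervals overlapped. Igfbp2 was 28.8-fold lower (26.2 to 31.6) in treated WT than in untreated WT, which placed it at rank 39 of the 12934 genes by size of the log2 ratio. By level it stood at rank 175 of all rows in untreated WT and at rank 6842 in treated WT. It was 3.86-fold higher (3.49 to 4.29) in Il17rc KO cells than in treated WT and 7.17-fold higher (6.50 to 7.92) in Il17rd KO cells. Both knockout libraries remained below untreated WT, by 7.45-fold (7.09 to 7.83) without Il17rc and 4.01-fold (3.87 to 4.17) without Il17rd.

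Igfbp7, a secreted protein that binds IGFs weakly and insulin and is found in basement membranes, moved the other way. It had 1601, 10477, 1902 and 3475 counts, or 83.5, 535, 94.8 and 169 CPM. Treated WT stood far above the other libraries, and of those Il17rd KO cells were the highest. Igfbp7 was 6.41-fold higher (6.08 to 6.76) in treated WT than in untreated WT and moved from rank 2846 to rank 244 by level. Against treated WT it was 5.64-fold lower (5.37 to 5.93) in Il17rc KO cells and 3.16-fold lower (3.04 to 3.29) in Il17rd KO cells. Il17rc KO cells came within 1.14-fold (1.06 to 1.21) of untreated WT, and Il17rd KO cells were 2.03-fold above it (1.91 to 2.15).

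Igfbp3, which encodes the main IGF carrier of serum, had 2114, 8685, 1784 and 5782 counts. Its levels were 110, 444, 89.0 and 282 CPM, so the libraries fell into a high pair, treated WT and Il17rd KO, and a low pair, untreated WT and Il17rc KO. It was 4.02-fold higher (3.84 to 4.22) in treated WT than in untreated WT. It was 4.99-fold lower (4.74 to 5.25) in Il17rc KO cells than in treated WT. In Il17rd KO cells it was 1.58-fold below treated WT (1.52 to 1.63), which is under the size called. Against untreated WT Il17rc KO cells were 1.24-fold lower (1.16 to 1.32), under the size called, and Il17rd KO cells 2.55-fold higher (2.43 to 2.68). The sex-linked genes split the libraries into the same pairs. Xist was at 243 and 414 CPM in treated WT and Il17rd KO, and at 126 and 133 in untreated WT and Il17rc KO. Ddx3y was at 11.9 and 0.0974 CPM in the former pair and at 34.1 and 37.4 in the latter. The part of this split in the levels of Igfbp3 was not tested.

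Igfbp4 and Igfbp5, binding proteins that are cut by the protease PAPP-A, were at the low end of the tables. Igfbp4 had 23, 79, 22 and 24 counts, so that treated WT alone stood out. It was 3.36-fold higher there (2.09 to 5.61) than in untreated WT, 3.68-fold lower (2.27 to 6.20) in Il17rc KO cells and 3.45-fold lower (2.16 to 5.71) in Il17rd KO cells. At 1.20, 4.04, 1.10 and 1.17 CPM, the intervals of the other 3 libraries overlapped. Igfbp5 had 17, 27, 31 and 24 counts, all intervals overlapped, and no comparison called it. Its ratio of treated WT to untreated WT was 1.56-fold, with an interval from 0.82 to 3.04, so a difference of either direction was not detectable at this depth.

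**Figure D2:**
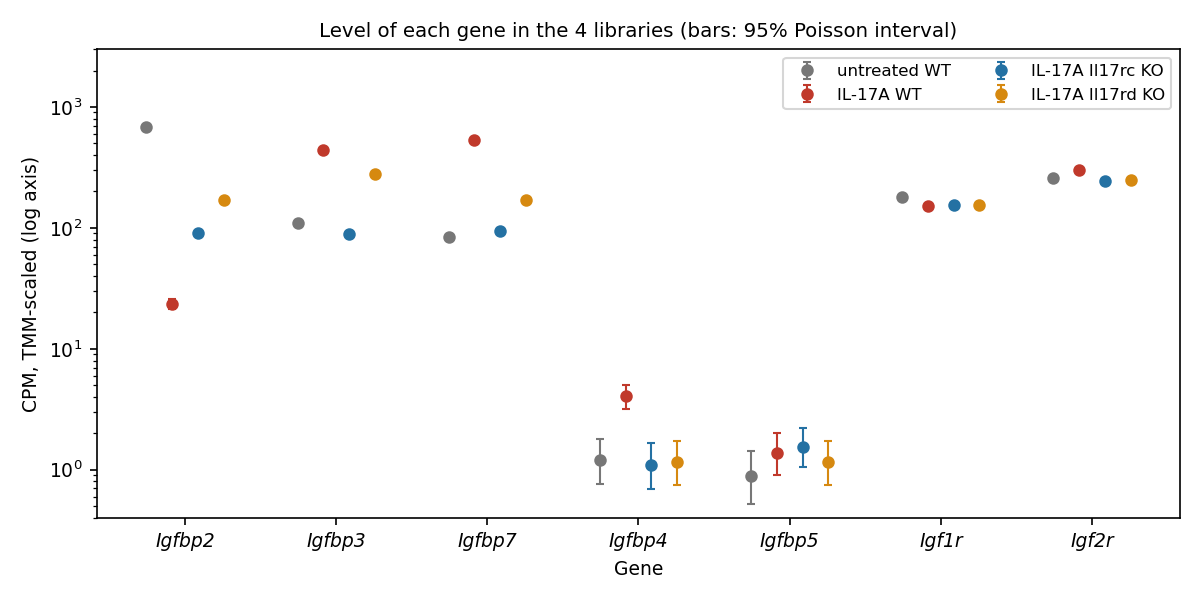
Points give the level of each of the 7 genes in CPM on a log axis, 1 point per library, with exact 95% Poisson intervals of the counts as bars. Igfbp2 spans 23.5 to 676 CPM with treated WT lowest, Igfbp3, Igfbp7 and Igfbp4 are highest in treated WT, and the points of each receptor gene lie close together.

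The receptors differed little beside the binding proteins. Igf1r, the signalling receptor, had 3438, 2989, 3127 and 3153 counts, or 179, 153, 156 and 154 CPM. Untreated WT was the highest, and the intervals of the 3 IL-17A libraries overlapped. Treated WT was 1.17-fold below untreated WT (1.12 to 1.23), and the Il17rc KO and Il17rd KO libraries were within 1.02-fold (0.97 to 1.07) and 1.01-fold (0.96 to 1.06) of treated WT. Igf2r had 4993, 5862, 4874 and 5145 counts, or 260, 299.5, 243 and 250.5 CPM, with treated WT the highest. It was 1.15-fold higher (1.11 to 1.19) in treated WT than in untreated WT. It was 1.23-fold lower (1.19 to 1.28) in Il17rc KO cells and 1.20-fold lower (1.15 to 1.24) in Il17rd KO cells than in treated WT. Neither receptor was called in any of the 6 comparisons, in which 4.24% to 19.7% of all tested genes were called. Per length, Igf2r was 2.58, 3.49, 2.77 and 2.90 times Igf1r in the 4 libraries.

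By level per length, Igfbp2, Igfbp7, Igfbp3, Igf2r and Igf1r followed in falling order in untreated WT, from 365 to 10.7 CPM per kb. In treated WT the order was Igfbp7, Igfbp3, Igf2r, Igfbp2 and Igf1r, from 442 to 9.08 CPM per kb. Both knockout libraries had the order Igfbp7, Igfbp2, Igfbp3, Igf2r and Igf1r, and Igfbp2 and Igfbp3 could not be ordered beyond counting error in Il17rd KO cells. The intervals of Igfbp4 and Igfbp5, at the bottom of the order, were apart from each other in treated WT alone.

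Treated WT was compared with untreated WT to describe what differed with the cytokine. Of the 7 genes, 3 were called higher (Igfbp3, Igfbp4 and Igfbp7) and 1 lower (Igfbp2), while Igfbp5, Igf1r and Igf2r were not called. Over all tested genes 8.97% were called higher and 10.7% lower. The median log2 ratio of the 7 genes was 0.58, with Igfbp2 at -4.84 and Igfbp7 at 2.68, and the median of all tested genes was 0.00. The genes were listed with earlier results of these libraries known, so their share of calls is not evidence about the family.

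The knockouts were each compared with treated WT to describe the same cytokine without either receptor gene. These comparisons share the treated WT library, so a direction opposite to that of the first comparison is partly built in. Without Il17rc, Igfbp2 was called higher and Igfbp3, Igfbp4 and Igfbp7 lower, against 6.22% and 4.84% of all tested genes. The median log2 ratio of the 7 genes was -0.30 and that of all tested genes 0.04. Without Il17rd, Igfbp2 was called higher and Igfbp4 and Igfbp7 lower, against 6.27% and 3.73% of all tested genes, with medians of -0.26 and 0.01.

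**Figure D3:**
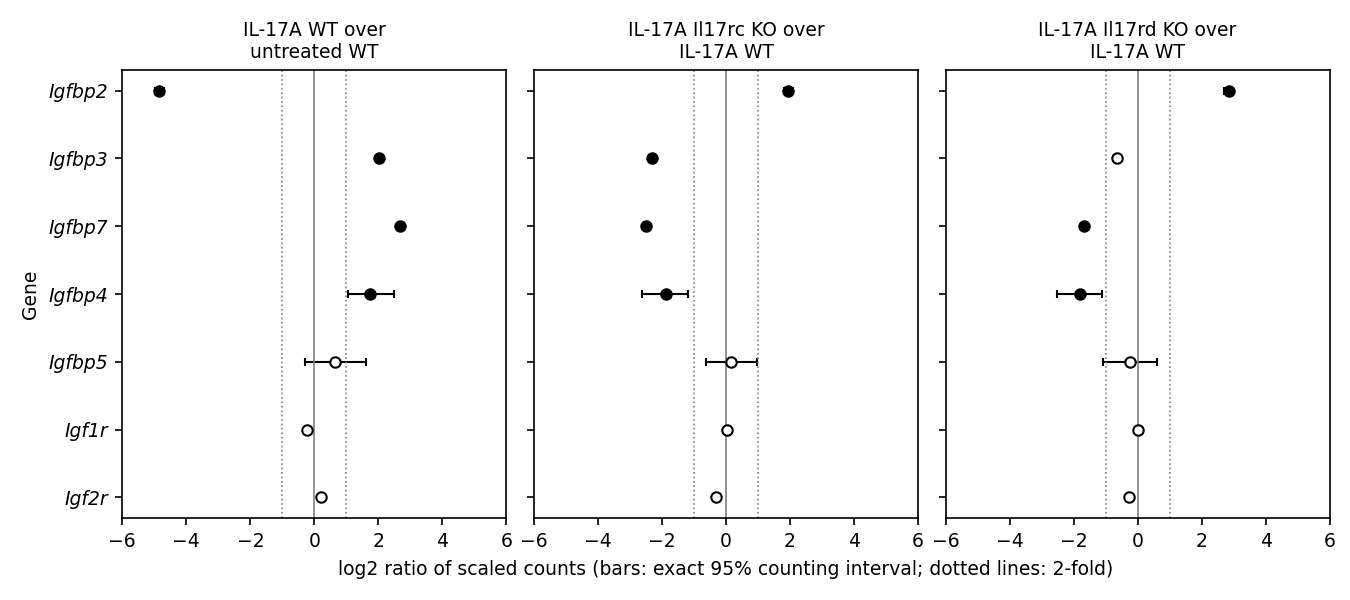
Each panel gives the log2 ratio of scaled counts of the 7 genes for 1 comparison, with exact 95% counting intervals. Filled points are called, open points are not, and dotted lines mark 2-fold. Igfbp2 lies opposite to Igfbp3, Igfbp7 and Igfbp4 in all 3 panels, and the point of Igfbp3 is open only in the Il17rd KO panel.

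The knockout libraries were also set against each other. Igfbp3 was 3.16-fold higher (3.0 to 3.34) in Il17rd KO cells than in Il17rc KO cells, and was the 1 gene called of the 7, against 2.75% of all tested genes called higher and 1.49% lower. Igfbp2 was 1.86-fold higher (1.75 to 1.96) and Igfbp7 1.78-fold higher (1.69 to 1.89) in Il17rd KO cells, both under the size called. Igfbp4 was at 24 counts against 22. Against untreated WT, 1 of the 7 genes was called lower and 0 higher in Il17rc KO cells, where 7.00% of all tested genes were lower and 7.27% higher. In Il17rd KO cells 1 was called lower and 2 higher, against 3.35% and 5.36%. The lower gene was Igfbp2 in both.

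**Figure D4:**
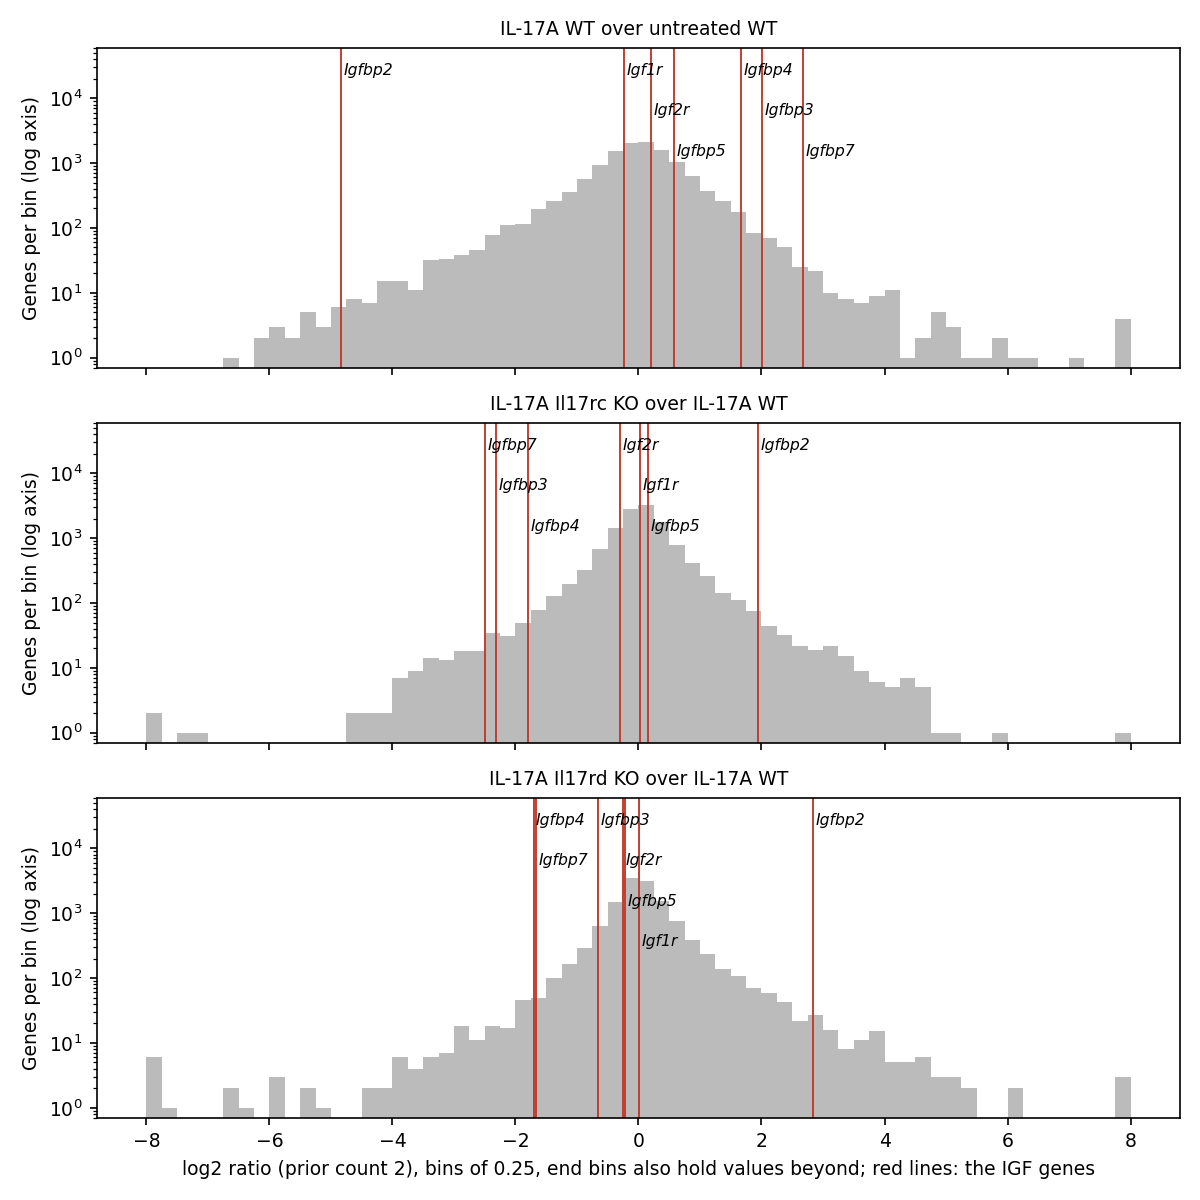
Grey bars count the 12934 tested genes per bin of log2 ratio on a log axis, 1 panel per comparison, and red lines mark the 7 genes. Igfbp2 lies in the thin left tail at -4.84 in the top panel, while Igf1r and Igf2r lie in the central bins of every panel.

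Genes with the most similar profile over the 4 libraries were found by the root mean square difference of log2 CPM, centred on each gene's mean, among 8910 named genes averaging at least 10 CPM. Only 4 libraries enter, so many genes come close. Nearest to Igfbp2 were the phospholipase gene Pla2g2f, at a difference of 0.31 and with 3448, 98, 690 and 795 counts, and the trichohyalin gene Tchh, at 0.44. For Igfbp3 they were Tnfaip2, at 0.12 and with 275, 914, 192 and 633 counts, and Zdbf2, at 0.17. For Igfbp7 they were the protocadherin gene Pcdh7, at 0.01 and with 290, 1882, 341 and 638 counts, and the heparan sulfatase gene Sulf1, at 0.11. For Igfbp4 they were Gpr149, at 0.05 and with 134, 440, 120 and 142 counts, and Tnfrsf23, at 0.07. Igfbp5, Igf1r and Igf2r spanned less than 1 log2 unit and were not searched.

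Of the ligand genes Igf1, Igf2, Ins1 and Ins2, Igf2 was the 1 with a row and so the 1 tested. It had 69, 78, 37 and 83 counts, Il17rc KO cells being the lowest. It was 2.16-fold lower there (1.44 to 3.29) than in treated WT and 2.19-fold lower (1.47 to 3.32) than in Il17rd KO cells. The 3 genes of IGF2 mRNA-binding proteins, Igf2bp1, Igf2bp2 and Igf2bp3, were called in 0 of the 6 comparisons. In these, 4.24% to 19.7% of all tested genes were called. Of the other receptors, the insulin receptor gene Insr had 1139, 623, 777 and 1058 counts and was not called. Lrp1, an endocytic receptor that binds IGFBP3, had 2651, 599, 870 and 1699 counts. It was 4.52-fold lower (4.13 to 4.95) in treated WT than in untreated WT, and 2.70-fold higher (2.46 to 2.97) in Il17rd KO cells than in treated WT.

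PAPP-A, a protease that cuts binding proteins, and its inhibitor stanniocalcin 2 were among 5 tested genes for proteases of binding proteins and their inhibitors. In treated WT 2 of the 5 were higher than in untreated WT and 0 lower, where 8.97% of all tested genes were higher and 10.7% lower. Pappa had 8, 46, 71 and 11 counts, so it was high in treated WT and in Il17rc KO cells. It was 5.63-fold higher (2.63 to 13.8) in treated WT than in untreated WT, and 6.61-fold lower (3.48 to 13.8) in Il17rd KO cells than in Il17rc KO cells. Stc2, the inhibitor gene, had 129, 116, 579 and 350 counts and was high in both knockout libraries, by 4.87-fold (3.98 to 6.00) and 2.87-fold (2.32 to 3.58) over treated WT. Adam12, a protease that cuts IGFBP3 and IGFBP5, had 1652, 6827, 2994 and 3900 counts and was 4.05-fold higher (3.84 to 4.27) in treated WT than in untreated WT.

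Other genes whose proteins carry an IGFBP-type domain were split. Of 6 tested, 2 were higher and 3 lower in treated WT than in untreated WT, against 8.97% and 10.7% of all tested genes. The matricellular gene Cyr61 had 2872, 13861, 2176 and 3054 counts and was 4.73-fold higher (4.54 to 4.92) in treated WT, and Wisp1, of the same family, was 2.89-fold higher (2.52 to 3.32). Crim1 was 2.42-fold lower (2.28 to 2.57), and Nov, with 11 counts against 40, was 3.71-fold lower (1.87 to 8.02). The protease gene Htra1 was 2.02-fold lower, a call that ended with total-count scaling (1.98-fold) and with upper-quartile scaling (1.95-fold), while Ctgf passed the size with both (2.03-fold and 2.06-fold higher). Without Il17rc 3 of the 6 were lower and 1 higher than in treated WT (4.84% and 6.22% of all tested genes), with Cyr61 6.53-fold (6.24 to 6.83) and Ctgf 4.69-fold (4.41 to 5.0) lower. Without Il17rd 2 were lower and 0 higher (3.73% and 6.27% of all tested genes), with Ctgf 7.40-fold (6.87 to 7.98) and Cyr61 4.76-fold (4.58 to 4.96) lower.

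Downstream of the receptors, 1 of 15 substrate and adaptor genes was higher in treated WT than in untreated WT and 0 lower, again against 8.97% and 10.7%. It was Grb10, which encodes an adaptor that restrains insulin and IGF receptor signalling, at 210, 714, 561 and 607 counts and 3.33-fold higher (2.85 to 3.90). Irs2, a substrate of both receptors, had 1424, 1306, 630 and 1214 counts and was 2.12-fold lower (1.93 to 2.34) in Il17rc KO cells than in treated WT. Of 23 genes of the PI3K, AKT, FOXO and mTOR arm, 0 were called in any of the 6 comparisons. Depending on the comparison, 4.24% to 19.7% of all tested genes were called. The median log2 ratio of the 23 genes was -0.40 in treated WT against untreated WT. FOXO transcription factors are held out of the nucleus by AKT. Of 14 genes known as their targets, 7 were lower in treated WT than in untreated WT and 0 higher, with a median log2 ratio of -0.95, where 10.7% of all tested genes were lower and their median was 0.00. Pdk4 had 86, 12, 25 and 113 counts, Txnip 1857, 453, 1333 and 2385, and Cited2 4777, 1253, 1065 and 1744. In treated WT Pdk4 was 7.32-fold lower (3.98 to 14.7), Txnip 4.18-fold lower (3.77 to 4.65) and Cited2 3.89-fold lower (3.66 to 4.14). The call of Ccng2, at 2.01-fold lower, ended with total-count and upper-quartile scaling. Without Il17rd 3 of the 14 were higher than in treated WT and 0 lower, with Pdk4 8.97-fold (4.94 to 17.9), Txnip 5.02-fold (4.54 to 5.56) and Sesn1 2.59-fold (2.18 to 3.09) higher, where 6.27% of all tested genes were higher and 3.73% lower. Without Il17rc 1 was higher, Txnip, and 2 lower, Irs2 and Pik3ip1, against 6.22% and 4.84% of all tested genes. AKT activity and the place of FOXO proteins in the cell were not measured. Their part in these differences was not tested. Of 19 genes of mannose 6-phosphate sorting and lysosomal hydrolases, the cargo side of IGF2R, 1 was lower in treated WT than in untreated WT. It was Ctsb (2.18-fold, 2.14 to 2.23), where 10.7% of all tested genes were lower. Against treated WT 0 of the 19 were called in either knockout. Of all tested genes 11.1% were called there without Il17rc and 10.0% without Il17rd.

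**Figure D5:**
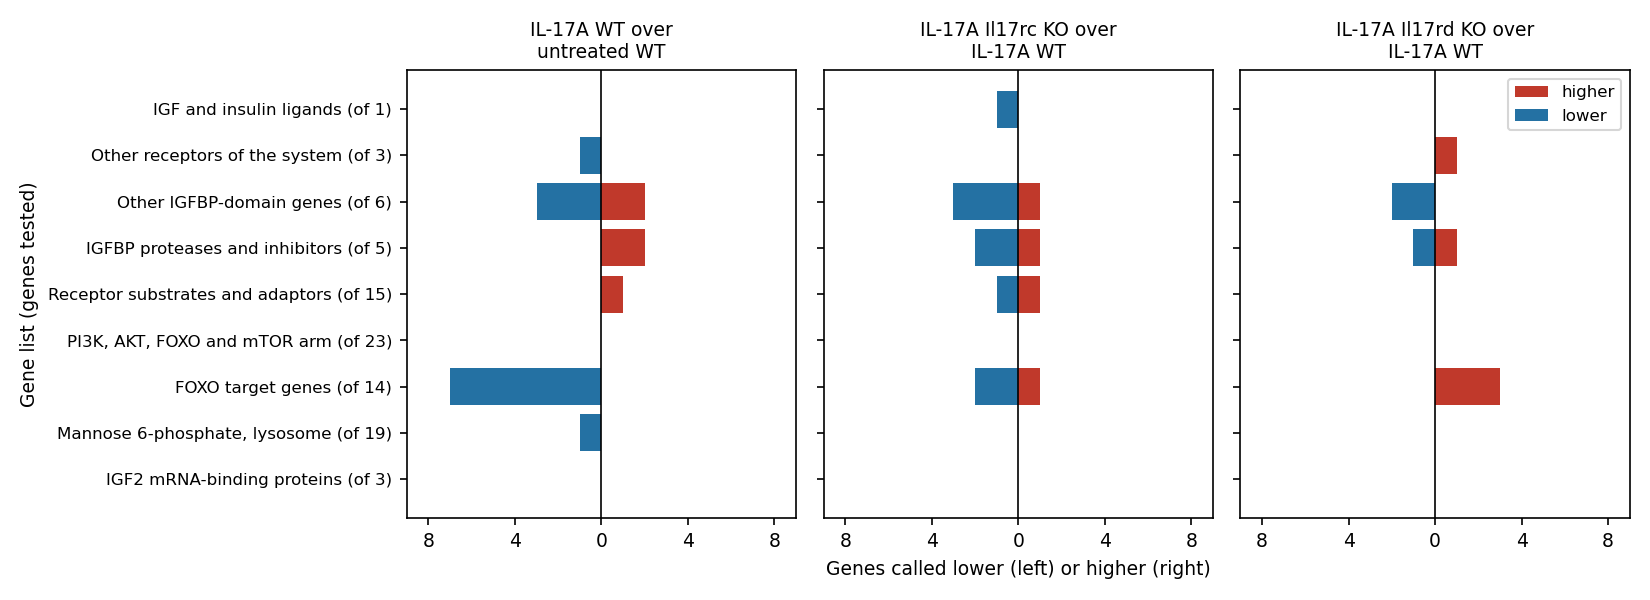
Bars count the genes of each list called lower (left) or higher (right) in 3 comparisons, with the number tested in parentheses. The FOXO target list has 7 of 14 genes lower in the left panel, where 10.7% of all tested genes were lower. The PI3K, AKT, FOXO and mTOR list has 0 of 23 called in every panel. From left to right, 19.7%, 11.1% and 10.0% of all tested genes were called.

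Markers of keratinocytes and of other cells the cultures could hold were read beside these results. The 8 keratinocyte markers summed to 46180, 34775, 36120 and 39557 CPM, and 10 markers of differentiating keratinocytes to 6244, 553, 2294 and 2741 CPM. Like Igfbp2, the sums of both lists were highest in untreated WT and lowest in treated WT, as was the melanocyte sum given below. In that comparison 9 of the 10 differentiation markers were called lower, against 10.7% of all tested genes. Of the 8 keratinocyte markers 2 were called lower. Of 15 fibroblast markers 13 had a row, with sums of 332, 275, 239 and 315 CPM. Most of each sum was Vim, at 180, 181, 126 and 150 CPM, and Fbln1, at 44.4, 64.0, 54.9 and 85.7 CPM. Of the 13 markers 9 were lower and 1 higher in treated WT than in untreated WT, against 10.7% and 8.97%. Among the 13, Col1a1 had 247, 27, 128 and 233 counts, the same order of libraries as Igfbp2. Col1a1 was lowest in the library where Igfbp7 was highest. The 1 marker called higher, Postn, had 43, 100, 18 and 65 counts and was highest in treated WT, as Igfbp7 was. Of 7 endothelial markers 3 had a row, with sums of 17.4, 30.1, 13.9 and 19.2 CPM, highest in treated WT as Igfbp7 was. Of 5 pericyte and smooth muscle markers 3 had a row, with sums of 563, 299, 249 and 370 CPM. Most of each sum was Acta2, at 533, 275, 219 and 354 CPM. In treated WT 1 of the 3 was higher than in untreated WT and 0 lower, against 8.97% and 10.7%. It was Tagln, with 35, 105, 27 and 55 counts, highest in treated WT as Igfbp7 was. Of 8 leukocyte markers 4 had a row, with sums of 52.9, 24.5, 6.58 and 23.0 CPM. The 8 melanocyte markers summed to 2489, 1640, 2088 and 2260 CPM, 7 of 10 hair follicle markers to 659, 475, 618 and 458 CPM, and 2 of 3 Schwann cell markers to 37.5, 15.2, 14.5 and 21.1 CPM. Most of each hair follicle sum was Sox9 and Runx1, while Sostdc1 was at 115, 1.79, 44.0 and 81.7 CPM. In treated WT 3 of the 4 leukocyte and 3 of the 7 hair follicle markers were called lower than in untreated WT. So were 1 of the 8 melanocyte markers and the 1 Schwann cell marker tested. In these lists 0 were called higher, against 10.7% lower and 8.97% higher over all tested genes. Of the 3 endothelial markers 1 was called higher and 0 lower. All markers with a row had counts above 0 in every library. The part of these cells in the levels of the binding proteins was not tested.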

How the data were processed

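Each of the 4 libraries has a table of gene symbols with a whole-number count and an FPKM value. The counts deposited by the authors are not normalized. The FPKM values deposited by the authors imply the same relative library sizes as the TMM-scaled totals computed here, and they gave the gene lengths. Per the submitters' processing notes, Trim Galore 0.4.4, HISAT2, featureCounts of Subread and edgeR were used, with build mm10. Settings, annotation and strand handling: not given in the sources used here. All 13102 rows exceed 1 CPM in at least 2 libraries.

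Counts were scaled with TMM factors (edgeR 4.0.16, R 4.3.3). Ratios carry exact conditional binomial (Clopper-Pearson) 95% intervals and levels exact Poisson intervals (SciPy 1.17.1). Log2 ratios of lists use a prior count of 2. The calling rule was checked on simulated counts with counting error alone, which does not cover variation between cultures. Of each list, up to 3 called genes per comparison with the largest log2 ratio could be named. Others (Insr, Crim1, Ctgf, Ccng2, Htra1, Ctsd, Col1a1, Vim, Fbln1, Postn, Acta2, Tagln, Sox9, Runx1, Sostdc1, Ddx3y, Xist and Polr2b) were named after their values were seen. Members and lists were chosen with earlier results of these data known. Positions come from GENCODE M21, near-identical copies (95% identity over at least 50% of a transcript) from BLAST+ 2.17.0, and promoter sequences from RefSeq. Alternatives were 3 other scalings (DESeq2 1.42.0 size factors, upper-quartile factors, total counts), the FPKM values, no filter, a 1.5-fold size and a prior count of 0.5. No label tells whether both WT libraries share animals, and their levels of Ddx3y and Xist differed, as given above.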

Additional observations from a re-analysis of the deposited data

How the results depend on the processing

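With DESeq2 size factors, upper-quartile factors or total counts, the number of the 7 genes called was the same in each of the 6 comparisons. It was also the same with the deposited FPKM values and with no filter on low values, but neither is a separate check. The FPKM values imply the same relative library sizes as TMM, so their ratios repeat the main ones. All 7 genes passed the filter, so leaving it out could not change their calls. With a 1.5-fold size, 3 genes (Igfbp2, Igfbp3 and Igfbp7) were called between the knockouts in place of 1, against 12.2% of all tested genes, and Igfbp3 was also called lower in Il17rd KO cells than in treated WT. That size raised the number of all genes called from 2544 to 4753 in treated WT against untreated WT, from 1430 to 2854 and 1294 to 2637 in the knockouts against treated WT, from 549 to 1579 between the knockouts, and from 1845 to 4101 and 1126 to 2793 in the Il17rc and Il17rd KO libraries against untreated WT. The widest shift of a log2 ratio of the 7 genes under another scaling was 0.11, in Il17rd KO cells against untreated WT with total counts. There the median of all genes moved from 0.00 to 0.12, and 839 genes were higher and 330 lower in place of 693 and 433. Of genes not called, Igf2r changed sign in that comparison, from -0.06 to 0.06, as did Igfbp4, from -0.04 to 0.08. Igf1r changed sign in the 3 comparisons among the IL-17A libraries under at least 1 other scaling. Over TMM and the other scalings it lay there from -0.04 to 0.09. Scaling of the gene lists was added as an alternative after seeing the data. Besides the genes given above it ended the calls of Socs2 (Il17rc KO against treated WT) and, against untreated WT, of Nov (Il17rd KO) and Ctsb (Il17rc KO), and it added calls of Pdk4, higher in Il17rc KO cells than in treated WT (2.09-fold with total counts), and of Ctsd, lower in Il17rc KO cells than in untreated WT (2.01-fold with DESeq2 size factors, 2.02-fold with upper-quartile factors). Depth limits Igfbp5, with 17 to 31 counts, and Igfbp4, with 22 to 79. No library could be left out, since each group has 1. No paired analysis was possible because each group has 1 library.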
